A study of Mus musculus with 4 samples.

Results

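The interleukin-6 (IL-6) family and the signaling route through STAT3 were followed here by 9 genes, taken by name: the ligands Il6, Lif and Osm, the receptor chains Il6ra, Il6st, Osmr and Lifr, the transcription factor Stat3 and its feedback inhibitor Socs3. The gene names in the scanner files match 8 of these 9 genes, through 17 of the 41142 probes used. No probe carries the name Lif. The cytokines of this family bind receptors that share the chain gp130, encoded by Il6st, and the bound receptors activate Janus kinases that phosphorylate STAT3. STAT3 then enters the nucleus and activates genes that include Socs3, whose product blocks the receptor complex and ends the signal. In kidney, tubular cells respond to these cytokines after ischemic injury, and STAT3 also induces Stat3 itself.

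RNA of whole mouse kidney was hybridised to 4 one-colour Agilent arrays, with 1 array for each group. The groups are NLRC5-/- I/R, WT I/R, NLRC5-/- sham and WT sham, where I/R stands for bilateral renal ischemia lasting 30 min and then reperfusion, and sham for the operation without it. The mice were 8 weeks old and of C57BL/6 background. NLRC5-/- mice lack Nlrc5, a NOD-like receptor protein that activates MHC class I genes. Titles give 48 h of reperfusion and sample descriptions give 24 h, a conflict that was not resolved.

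A value below is the log2 of the processed signal minus that array's 75th percentile, and a difference is in log2 units. With 1 array in a group, no difference between 2 arrays has a replicate check or a p-value. Among replicate spots well above background on both arrays, the log2 difference between 2 arrays had an SD of 0.15. That SD is technical and leaves out dim spots and the spread between animals. Spots of the dim Il6 probe had SDs from 0.12 in WT sham to 0.51 in WT I/R within 1 array. The 75th percentile of the signal was 362, 182, 465 and 456 for NLRC5-/- I/R, WT I/R, NLRC5-/- sham and WT sham, and 67.5% to 74.9% of spots were well above background. Both arrays labelled NLRC5-/- were on one slide and both WT arrays on another, so genotype and slide cannot be told apart, whereas each comparison of I/R with sham lies within a slide. The single Nlrc5 probe, A_52_P382107, read -3.62 in NLRC5-/- I/R, -3.34 in WT I/R, -3.77 in NLRC5-/- sham and -4.08 in WT sham, above background on all 4 arrays. The deleted part of the gene is not given in the sources used here, and a probe outside it would check nothing, so genotypes are those of the labels throughout. Xist was well above background on the NLRC5-/- sham array alone, and 4 Y-linked genes (Ddx3y, Eif2s3y, Kdm5d and Uty) on the other 3 arrays alone, so comparisons with that array also set a female pattern against a male one. All 12 kidney markers were above background on every array. In whole-kidney RNA, fewer cells of a type and less RNA per cell cannot be told apart.

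Sequences bear on the results at 2 places. The first is Lifr, whose 5 probes disagreed with each other. Printed below are the probe with the widest range of all member probes, its neighbour in the transcript that went the other way, and one that hardly differed between I/R and sham. Coordinates are those of mm9 on the plus strand, and letters are as in the files.
Lifr A_52_P579352, chr15:7134761-7135567: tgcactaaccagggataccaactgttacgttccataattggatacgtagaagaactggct
Lifr A_52_P192699, chr15:7135674-7135733: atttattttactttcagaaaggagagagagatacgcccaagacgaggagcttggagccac
Lifr A_52_P297113, chr15:7141059-7141118: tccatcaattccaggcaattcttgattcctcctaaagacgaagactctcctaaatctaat
Per the files these begin at bases 2158, 2324 and 3232 of the transcript. The 60 bases of the first lie over 807 genomic bases and so cross a splice junction, while the others are contiguous in the genome.

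The second is the stretch upstream of Socs3, the member with the second-largest difference between WT I/R and WT sham. STAT3 binds DNA at the palindrome TTCNNNGAA, in which N is any base and which reads the same on both strands. It was searched in the 250 bases before each gene start in RefSeq (GRCm38.p6), where 2306 of 32851 windows (7.02%) held it. For the members the table had 9 windows of 8 genes, with none for Osm, and 1 window held a match. That window is Socs3, chr11:117969367-117969616 on the minus strand of GRCm38.p6, written from 5′ to 3′ with the match, which begins 154 bases before the start, in capitals.
Socs3: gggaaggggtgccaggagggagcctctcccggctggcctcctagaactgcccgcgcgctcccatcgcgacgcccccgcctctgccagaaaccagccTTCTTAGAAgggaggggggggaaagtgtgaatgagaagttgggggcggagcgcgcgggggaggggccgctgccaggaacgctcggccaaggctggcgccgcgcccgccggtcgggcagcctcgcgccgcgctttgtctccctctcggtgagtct
A match is a description of these letters, and no binding was measured.

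The ligands were dim. Il6, the cytokine that gives the family its name, has 1 probe in 10 spots (A_51_P217218, chromosome 5, 30346362 to 30346421, mm9). Its median spot signal was 9.57 in NLRC5-/- I/R and 6.21 in WT I/R, against 2.16 in NLRC5-/- sham and 2.17 in WT sham. Of the spots kept, 3 of 8 in NLRC5-/- I/R and 1 of 9 in WT I/R were well above background, and 0 of 9 were in NLRC5-/- sham and 0 of 9 in WT sham. As raw signals the spots of WT I/R, from 2.92 to 7.85, overlapped those of NLRC5-/- sham, from 1.96 to 3.42. After scaling to the 75th percentile, which was lowest in WT I/R, the spots of the I/R arrays did not overlap those of the sham arrays. As most spots were not well above background on any array, no fold is given for Il6.

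**Figure D1:**
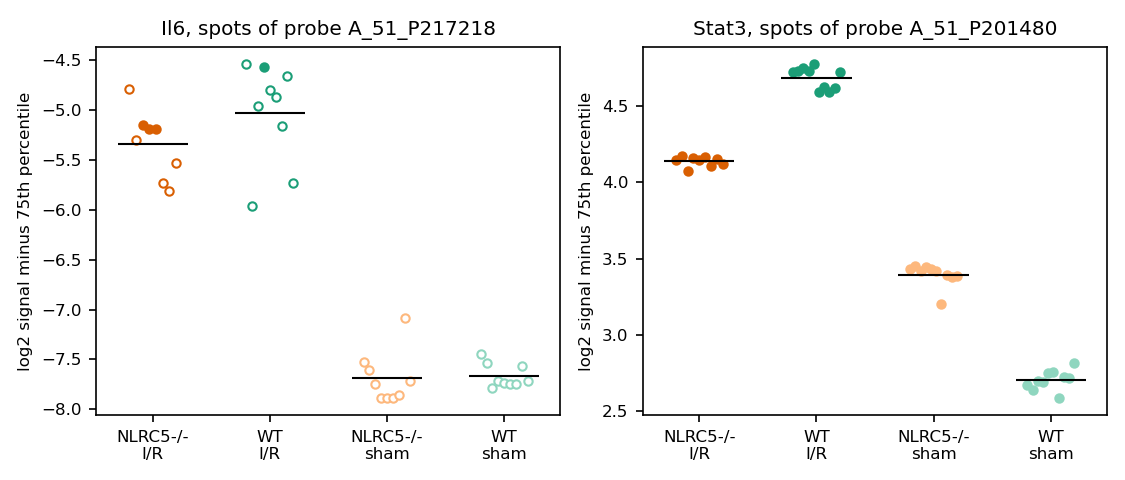
Spots of the Il6 probe (left) and of the brighter Stat3 probe (right) on each array, as log2 signal minus the array's 75th percentile, on axes that do not start at 0. Filled points were well above background, open points were not, and lines are means over the spots of 1 array. Il6 averaged -5.33 and -5.03 in NLRC5-/- I/R and WT I/R, below -7 in both sham arrays, and the 4 arrays did not overlap for Stat3.

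Osm encodes oncostatin M, a ligand made largely by leukocytes. Its probe A_51_P291361 read -4.02 in NLRC5-/- I/R, -4.42 in WT I/R, -4.81 in NLRC5-/- sham and -4.39 in WT sham. The highest array was NLRC5-/- I/R and the lowest NLRC5-/- sham, 0.79 apart, while WT I/R and WT sham differed by -0.04. The other Osm probe, A_52_P348614, was not well above background on any array. For Lif, the leukemia inhibitory factor, there is no value. A probe that the files describe as LIF but do not name so (A_51_P306109) read -1.72, -1.89, -1.52 and -1.32 in NLRC5-/- I/R, WT I/R, NLRC5-/- sham and WT sham, and it was not counted as a member.

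The receptor chains split. Il6ra encodes the chain that binds IL-6. Its 2 probes stayed within 0.56 in each of the 4 pairwise comparisons. A_51_P415855 read -2.47 in NLRC5-/- I/R, -2.52 in WT I/R, -2.28 in NLRC5-/- sham and -2.84 in WT sham. A_51_P415863 ranged over the arrays by less, between -4.24 in WT I/R and -4.59 in WT sham.

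Il6st, the shared signaling chain, was above background on all arrays and highest in WT sham. Its probe A_51_P473888 read 0.81 in NLRC5-/- I/R and 1.0 in WT I/R, against 0.66 in NLRC5-/- sham and 1.22 in WT sham. Neither genotype showed more than 0.21 between I/R and sham, and the widest gap was the -0.56 between NLRC5-/- sham and WT sham.

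Osmr encodes the chain that pairs with gp130 to bind oncostatin M, and it was higher after I/R in both genotypes. Its brighter probe A_51_P319460 (chromosome 15, 6763686 to 6763745, mm9) read 1.84 in NLRC5-/- I/R and 1.79 in WT I/R, against 0.57 in NLRC5-/- sham and 0.15 in WT sham. Both I/R arrays thus lay above both sham arrays. The difference between I/R and sham was 1.27 (2.42-fold) in NLRC5-/- and 1.64 (3.13-fold) in WT, and the I/R arrays were 0.05 apart. The dimmer probe A_52_P495729, not well above background on either WT array, had the same order of I/R over sham, with 0.83 in NLRC5-/-.

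**Figure D2:**
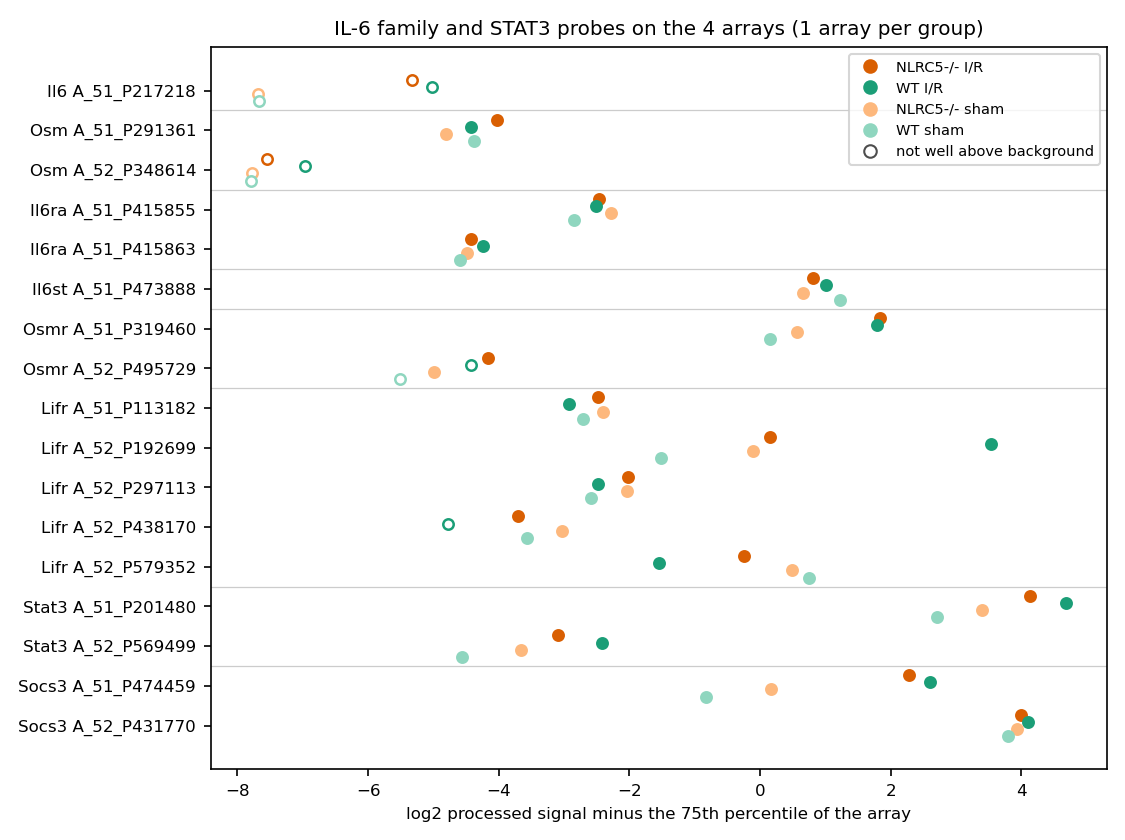
Values of the 17 member probes on the 4 arrays, with log2 signal minus the array's 75th percentile on the horizontal axis and 1 point for each array. Open points were not well above background. Osmr A_51_P319460, both Stat3 probes and Socs3 A_51_P474459 have both I/R arrays above both sham arrays, and Lifr A_52_P192699 has WT I/R alone at 3.54.

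Lifr encodes the chain that binds LIF and, with gp130, passes its signal. Its 5 probes gave 3 different pictures. A_52_P579352 read -0.25 in NLRC5-/- I/R and -1.54 in WT I/R, against 0.49 in NLRC5-/- sham and 0.75 in WT sham. Both I/R arrays lay below both sham arrays, by -0.74 in NLRC5-/- and by -2.29 (4.90-fold lower) in WT. A_52_P438170 lay the same way, at -0.68 in NLRC5-/- and -1.21 in WT. With normexp background correction it turned to 1.34 in NLRC5-/- and 0.62 in WT, so its direction depends on the correction. That correction adds an offset of 50, and the cause of the change was not tested. The processed signals of this probe were 27.8 in NLRC5-/- I/R, 6.64 in WT I/R, 57.2 in NLRC5-/- sham and 38.6 in WT sham. In WT I/R this probe was not well above background, so that it was at least 2.26-fold lower there than in WT sham.

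The neighbour A_52_P192699 read 0.15 in NLRC5-/- I/R and 3.54 in WT I/R, against -0.11 in NLRC5-/- sham and -1.51 in WT sham. WT I/R stood alone as the high array, 5.05 (33.1-fold) above WT sham, whereas the NLRC5-/- arrays were 0.26 apart. Between the I/R arrays the difference was -3.38 (10.4-fold lower in NLRC5-/-), the largest of any member probe. A_51_P113182 and A_52_P297113 differed between I/R and sham by at most 0.20 in size in either genotype, although A_51_P113182 stood at 1.03 in NLRC5-/- with normexp. No direction for Lifr as a gene is therefore given, since it depends on the probe.

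**Figure D3:**
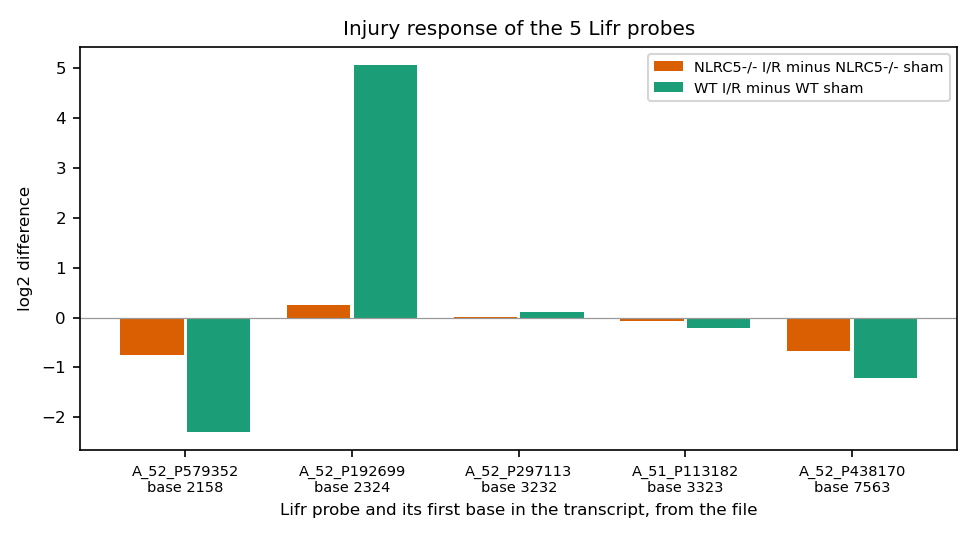
Difference between I/R and sham, in log2 units, for the 5 Lifr probes in the order of their first base in the transcript. Bars are NLRC5-/- (left of each pair) and WT (right of each pair), 1 array in each group and no error bars. WT is at 5.05 for A_52_P192699 and at -2.29 for A_52_P579352.

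The genes whose profile over the 4 arrays lay nearest to that of A_52_P192699 were Usp29, a deubiquitinase gene, Tgm5, a transglutaminase gene, and Rph3al, which encodes a Rab effector of exocytosis. They were taken by the root mean square difference of centred values among 26503 probes above background on all arrays. The distances were 0.10 for Usp29, 0.11 for Tgm5 and 0.12 for Rph3al. Usp29 read 0.95 in NLRC5-/- I/R and 4.15 in WT I/R, against 0.47 in NLRC5-/- sham and -0.98 in WT sham. The longest run of bases that the Lifr probe shares with the probe of Usp29 or of Tgm5 is 9, which 1.65% of all other probes reach, and with that of Rph3al 6, the median of all probes.

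Stat3 was higher after I/R in both genotypes, and further above sham in WT. Its brighter probe A_51_P201480 (chromosome 11, 100749598 to 100749657, mm9) read 4.14 in NLRC5-/- I/R and 4.69 in WT I/R, against 3.40 in NLRC5-/- sham and 2.70 in WT sham. SDs over 9 or 10 spots were 0.03 to 0.07, and no array overlapped another. I/R over sham was 0.74 (1.67-fold) in NLRC5-/- and 1.98 (3.95-fold) in WT, so the NLRC5-/- response minus the WT response was -1.24. That gap had parts on both sides, with NLRC5-/- I/R minus WT I/R at -0.55 and NLRC5-/- sham minus WT sham at 0.69. The NLRC5-/- sham array has the female pattern. With normexp, I/R over sham for this probe was 0.20 in NLRC5-/- and 1.75 in WT. The size of the NLRC5-/- difference thus depended on the correction.

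The second Stat3 probe, A_52_P569499, lies further toward the 3′ end. It read -3.09 in NLRC5-/- I/R and -2.43 in WT I/R, against -3.66 in NLRC5-/- sham and -4.56 in WT sham. The order of the 4 arrays was that of the first probe. I/R over sham was 0.57 in NLRC5-/- and 2.13 in WT, a response difference of -1.56. With normexp that last value was 0.14, and NLRC5-/- I/R minus WT I/R turned to 0.52 where it had been -0.66, so for the dimmer probe the gap between responses depended on the correction. Its processed signals ran from 19.4 in WT sham to 42.7 in NLRC5-/- I/R, and normexp adds an offset of 50. Values of the brighter probe moved with normexp too, and the cause was not tested.

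Socs3 had the largest I/R difference of any member in NLRC5-/- kidneys among probes above background. A_51_P474459 (chromosome 11, 117827480 to 117827539, mm9, minus strand) read 2.28 in NLRC5-/- I/R and 2.60 in WT I/R, against 0.16 in NLRC5-/- sham and -0.82 in WT sham. Both I/R arrays lay above both sham arrays. I/R over sham was 2.11 (4.33-fold) in NLRC5-/- and 3.42 (10.7-fold) in WT, and the NLRC5-/- response minus the WT response was -1.31. The I/R arrays differed by -0.32 and the sham arrays by 0.99, so the larger part of that gap lay in the sham arrays, one of which has the female pattern. The other probe named Socs3, A_52_P431770, lies on the plus strand, opposite to the first. It read 4.0, 4.10, 3.93 and 3.80 in NLRC5-/- I/R, WT I/R, NLRC5-/- sham and WT sham, within 0.30 over all arrays.

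**Figure D4:**
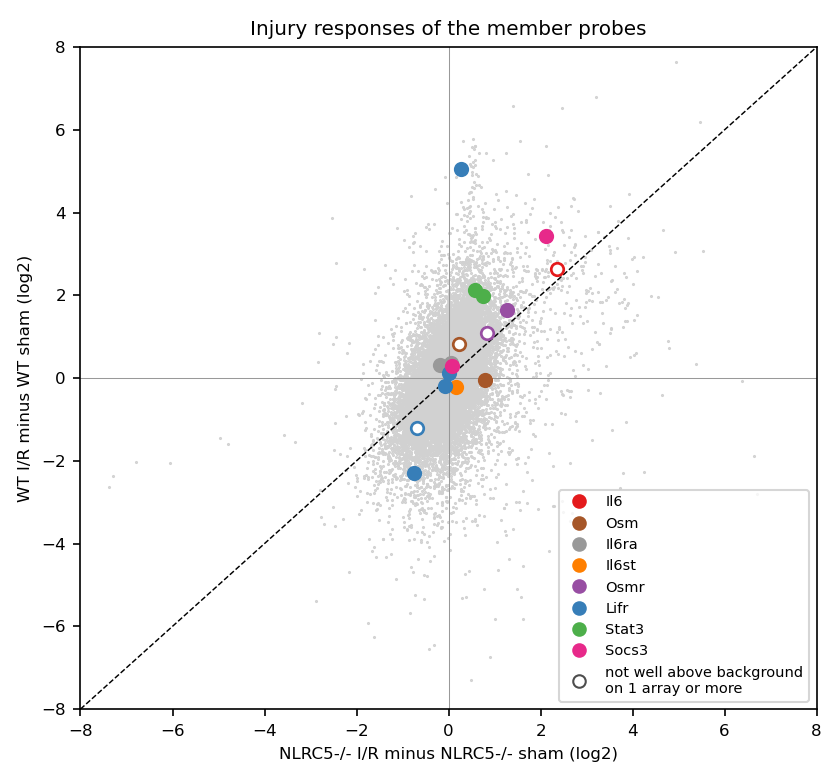
I/R minus sham in NLRC5-/- (horizontal axis) and in WT (vertical axis), in log2 units, for the member probes in colour and for all probes above background on 4 arrays in grey. The dashed line marks equal responses. Socs3 A_51_P474459 lies at 2.11 and 3.42, the Stat3 probes lie at 0.74 and 1.98 and at 0.57 and 2.13, and Lifr A_52_P192699 lies at 0.26 and 5.05.

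Counts at 2-fold are read against all probes, each comparison over probes well above background on either array. In NLRC5-/- I/R against WT I/R, 2 of 15 member probes were higher and 1 lower, all of them Lifr probes, where 10.7% of all probes were higher and 8.11% lower (18.8% together). The members' share is near that of all probes. In WT I/R against WT sham, 5 of 14 were higher, both Stat3 probes, Osmr, Socs3 and Lifr A_52_P192699, and 2 were lower, both of Lifr, where 15.1% of all probes were higher and 14.7% lower (29.8% together). In NLRC5-/- I/R against NLRC5-/- sham, 2 of 15 were higher, Osmr and Socs3, and 0 lower, against 4.46% and 4.36% of all probes (8.82% together). In NLRC5-/- sham against WT sham, 1 of 15 was higher, Lifr A_52_P192699, and 0 lower, against 6.24% and 3.77% of all probes (10% together).

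The median difference of the measured member probes was 0.04 in NLRC5-/- I/R against WT I/R, where that of all probes was 0.04 too. It was 0.31 in WT I/R against WT sham and 0.15 in NLRC5-/- I/R against NLRC5-/- sham, where all probes had 0.03 and 0.02. In NLRC5-/- sham against WT sham it was 0.53, where all probes had 0.09. For the NLRC5-/- response minus the WT response, 1 of 13 member probes was higher by 2-fold and 4 were lower, where 8.41% of all probes were higher and 9.52% lower (17.9% together). The 4 lower ones were both Stat3 probes, Socs3 A_51_P474459 and Lifr A_52_P192699. These comparisons share arrays and are not independent of each other.

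A limma fit over all 4 arrays, with genotype and injury as additive terms and 1 residual degree of freedom, is the only test the design allows. In this fit a gene whose injury response differs between genotypes has a larger error. For injury, 0 of 30325 probes passed an adjusted p of 0.05 with Benjamini-Hochberg adjustment, with 0.354 as the lowest value. Unadjusted, 1633 probes (5.38%) were higher and 1998 (6.59%) lower with p under 0.05. Among the 15 member probes tested, 7 had an unadjusted p under 0.05. They were Socs3 A_51_P474459 (limma coefficient 2.77 ± 0.43 SE, adjusted p = 0.375), both Osmr and both Stat3 probes on the higher side, and Lifr A_52_P579352 and A_52_P438170 on the lower side, all 6 with an adjusted p of 0.41 in limma. Of these, Osmr A_52_P495729 was not well above background on either WT array, nor was Lifr A_52_P438170 in WT I/R. The limma coefficient of Lifr A_52_P438170 was -0.95, and 0.98 with normexp. For genotype, 0 of 30325 probes passed in limma, with 0.703 as the lowest adjusted p. Unadjusted, 1226 (4.04%) were higher and 705 (2.32%) lower with p under 0.05, and 0 of 15 member probes were among them.

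The other genes of the pathway were taken from lists of known members, 1 brightest probe a gene, with the 9 genes above left out. By that rule 15.4% of all genes were higher and 14.4% lower by 2-fold in WT I/R against WT sham. In NLRC5-/- I/R against NLRC5-/- sham, 4.79% were higher and 4.31% lower, and in NLRC5-/- I/R against WT I/R, 11.4% were higher and 8.23% lower. Of 7 other ligands, 2 were higher in NLRC5-/- I/R than in NLRC5-/- sham, and 3 were higher in WT I/R than in WT sham. Clcf1, a cytokine of the family, was higher after I/R by 1.02 in NLRC5-/- and 1.97 in WT. Il11, an IL-6 family cytokine with a receptor chain of its own, was higher by 0.40 in NLRC5-/- and 1.41 in WT. Ctf1, cardiotrophin, stood at -0.23 and 0.45.

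Among the other receptors, Cntfr, Il27ra, Il31ra and Il11ra1, none was 2-fold apart in any of these comparisons. None of the 6 kinases and further STATs was either. Among them, I/R differences in NLRC5-/- and WT were -0.03 and -0.64 for Tyk2, 0.03 and 0.24 for Jak2, and -0.18 and -0.38 for Stat5b. Of that list Stat3 alone was past 2-fold, in WT I/R against WT sham.

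Of 8 other regulators, 1 was higher after I/R in NLRC5-/- and 2 in WT, where 4.79% and 15.4% of all genes were. Socs2, a feedback inhibitor of growth hormone signaling, was higher by 1.45 in NLRC5-/- and 1.80 in WT. Socs7, of the same protein family, was higher by 0.72 in NLRC5-/- and 3.68 in WT. Both were lower in NLRC5-/- I/R than in WT I/R, at -1.24 for Socs2 and -1.94 for Socs7. Socs1, which inhibits Janus kinases directly, stood at 0.62 and 0.42, and the phosphatase gene Ptpn2 at 0.38 and 0.70.

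**Figure D5:**
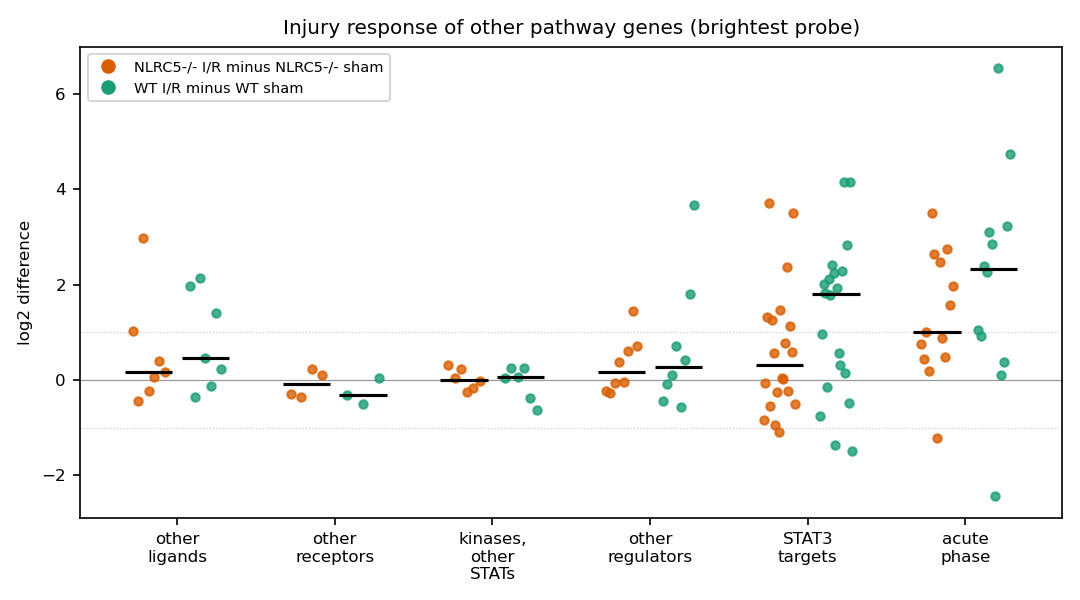
I/R minus sham, in log2 units, for the genes of 6 pathway lists without the 9 members, in NLRC5-/- (left of each pair) and WT (right of each pair). Each point is a gene above background on either array, bars are medians, and dotted lines mark 2-fold. The medians of the STAT3 targets are 0.31 in NLRC5-/- and 1.80 in WT, and those of the acute phase genes are 1.01 and 2.33.

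Genes known as STAT3 targets had the larger median difference after I/R in WT. Of 20 such genes, 7 were higher and 1 lower after I/R in NLRC5-/-, with a median of 0.31, and 11 were higher and 2 lower in WT, with a median of 1.80. All genes had medians of 0.03 in both, but 4.79% were higher and 4.31% lower by 2-fold in NLRC5-/- and 15.4% and 14.4% in WT. More of all genes thus passed 2-fold in WT, and whether these targets differ from that was not tested. In NLRC5-/- I/R against WT I/R, 2 of the targets were higher and 7 lower, with a median of -0.55 where all genes had 0.06. Of all genes, 11.4% were higher and 8.23% lower there. Timp1, an inhibitor of metalloproteinases, was higher after I/R by 3.50 in NLRC5-/- and 4.16 in WT. Lrg1, a secreted glycoprotein, was higher by 2.38 and 4.15, and the transcription factor gene Myc by 1.12 and 2.84. Cebpd, another transcription factor gene, stood at -0.94 in NLRC5-/- and 2.40 in WT, and its sham arrays differed by 1.72. Many of these genes also answer to other signals, and the lists were not tested.

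Of the acute phase genes, which the IL-6 route induces in liver, 7 of 13 were higher and 1 lower after I/R in NLRC5-/-, and 8 of 12 were higher and 1 lower in WT. Of all genes, 4.79% were higher and 4.31% lower in NLRC5-/-, and 15.4% and 14.4% in WT. In NLRC5-/- I/R against WT I/R, 2 of 13 were higher and 7 lower, with a median of -1.05. Of all genes, 11.4% were higher and 8.23% lower there. Lcn2, a tubular injury marker that binds siderophores, was higher by 2.46 in NLRC5-/- and 6.54 in WT, and NLRC5-/- I/R minus WT I/R was -3.02. The fibrinogen chain gene Fgb was higher by 3.50 and 3.11, and Saa2, a serum amyloid gene, by 2.76 and 3.22. NLRC5-/- I/R minus WT I/R was -1.21 for Fgb and -1.22 for Saa3, another serum amyloid gene. Saa2 went the other way, at 1.86, and its NLRC5-/- sham minus WT sham was 2.33. Saa3 was higher by 1.57 in NLRC5-/-, and in WT, where it was not well above background in the sham array, by at least 8.81-fold.

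Markers of other cell types also differed between the arrays. The summed level of the neutrophil list, in units of each array's 75th percentile, was 3.40 in NLRC5-/- I/R, 12.6 in WT I/R, 7.05 in NLRC5-/- sham and 4.82 in WT sham, with 4 to 6 of 9 genes above background. That of the fibroblast list was 107, 47.0, 34.2 and 41.2, and that of the endothelial list 32.6, 9.10, 41.1 and 29.2, in the same arrays, with all genes of both above background. The macrophage list stood at 16.9, 10.6, 16.6 and 12.3, a sum over genes that went both ways. In WT I/R against WT sham, 3 of its 10 genes were higher and 5 lower by 2-fold, where 15.4% and 14.4% of all genes were. The adipocyte, hepatocyte and erythroid lists were also highest in a sham array. The adipocyte list summed to 9.38 in NLRC5-/- I/R, 8.17 in WT I/R, 13.3 in NLRC5-/- sham and 51.5 in WT sham, with 3 to 6 of 7 genes above background. The hepatocyte list summed to 4.17, 1.11, 2.64 and 26.5 in the same arrays, with 2 or 3 of 4 genes above background. The erythroid list summed to 1.36, 1.83, 55.9 and 6.54, with 2 or 3 of 3 genes above background. Kidney markers were lower in WT I/R than in WT sham by the median, at -1.26, and stood at -0.38 in NLRC5-/-. The part of these differences in the values of Osmr, Lifr, Stat3 and Socs3 was not tested.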

How the data were processed

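Groups came from the labels, with 1 array each. Spot intensities and flags in the deposited scanner files came from Agilent Feature Extraction (10.7.3.1 per the file headers, 9.1 per the submitters' processing notes), background-subtracted within each array and not scaled between arrays. The authors' deposited table of log2 values, whose normalization is not given in the sources used here and whose columns have medians of 5.91 to 5.93, was an alternative. Control and outlier spots were left out, spots of a probe averaged, and log2 intensity taken minus the 75th percentile. A probe was measured in a comparison where well above background on either array. Where dim, its value is bounded by the lowest signal well above background, as "at least". Probe coordinates are mm9, per the file headers. limma 3.58.1 (R 4.3.3) tested probes above background on at least 2 arrays, and its p-values cover no more than the spread among these 4 samples. The procedure was also run on simulated arrays. Those had no difference in injury response between genotypes, so that run does not check genes with such a difference. The precision is limited by the number of arrays. Members and lists were chosen with earlier results of these data known. Named genes are all members, Nlrc5, up to 4 genes of each pathway list with the largest differences, and 3 nearest profiles, of which 2 genes are not reported here. Pathway genes are given by their brightest probe. Alternatives were normexp (offset 50), median and quantile scaling, the authors' table, filters, a 1.5-fold threshold and leaving out arrays.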

Additional observations from a re-analysis of the deposited data

Results flagged for a closer look

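At 3 member probes the I/R response had opposite signs in the 2 genotypes, with 1 array in each group, so the difference was not tested. Osm A_51_P291361 was at 0.79 in NLRC5-/- and -0.04 in WT, a difference of 0.83. Il6ra A_51_P415855 was at -0.19 in NLRC5-/- and 0.32 in WT, a difference of -0.52. Il6st A_51_P473888 was at 0.15 in NLRC5-/- and -0.21 in WT, a difference of 0.37. Each of these responses is under 2-fold. Those of Osm in WT and of Il6st in NLRC5-/- are close to or under the technical SD of 0.15, which was taken from spots well above background. With normexp background correction none of the 3 had opposite signs: the responses in NLRC5-/- and WT were 1.87 and 0.90 for Osm, 0.94 and 0.57 for Il6ra, and -0.11 and -0.27 for Il6st.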

How the results depend on the processing

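Median scaling shifted every log2 difference by -0.15 in NLRC5-/- sham against WT sham, by -0.11 in WT I/R against WT sham and by less elsewhere. Of the 85 differences of member probes, 6 changed sign with it, 4 with quantile normalization, 6 with the authors' table and 23 with normexp background correction. With normexp, 2 of those past 2-fold changed sign: Lifr A_52_P438170 in WT I/R against WT sham became 0.62, and the response difference of Stat3 A_52_P569499 became 0.14. The processed signals of both probes were mostly below the normexp offset of 50, and the cause was not tested. Bright probes moved with normexp too, as Stat3 A_51_P201480 did from 0.74 to 0.20 in NLRC5-/- I/R against NLRC5-/- sham. With normexp, the member probes 2-fold apart numbered 1 in NLRC5-/- I/R against WT I/R, where 7.88% of all probes were apart. They numbered 7 in NLRC5-/- I/R against NLRC5-/- sham (41.5% of all probes) and 0 in NLRC5-/- sham against WT sham (2.34%). At 1.5-fold those within NLRC5-/- numbered 7 and those between sham arrays 4, of 15 each, where 23.6% and 28.4% of all probes were apart. With WT sham in place of NLRC5-/- sham, an alternative chosen after seeing the data, 7 were apart from NLRC5-/- I/R, 6 higher and 1 lower. Of all probes, 21.5% were apart there. In limma, normexp gave 11189 probes at an adjusted p under 0.05 for injury and 126 for genotype. In that fit limma gave every probe the same error, so these counts cannot be set beside those of the main fit. Leaving out 1 array, which also removes the other term, gave 0 to 1816 for injury (1816 without NLRC5-/- I/R, 62 without WT I/R) and 0 to 305 for genotype (305 without WT sham). For genotype with median scaling, limma had 778 probes higher and 1062 lower at an unadjusted p under 0.05, against 1226 and 705. The other alternatives, which were the 2 filters on dim probes, bounds for dim probes, both scalings and the authors' table, left the total of member probes 2-fold apart in each comparison within 1.5 times and the limma calls at 0. With no filter, limma had 2594 probes higher for injury at an unadjusted p under 0.05, against 1633. The member probes with an unadjusted p under 0.05 for injury in limma numbered 6 with both scalings and the authors' table, against 7. With probes above background on all arrays they were 5 of 13, and with no filter 8 of 17. Member counts by direction moved more: with probes above background on all arrays, 1 was higher in NLRC5-/- I/R than in WT I/R and 1 lower in WT I/R than in WT sham, against 2 each, and 2 response differences were higher with the authors' table, against 1. No paired analysis was possible because each group has 1 array. Il6 and the second Osm probe were too dim for a fold.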
